A study of Homo sapiens with 8 samples.

Results

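DCIS.COM cells that had been stably transduced with a pCDH vector carrying HOTAIR were compared, gene by gene and in both directions, with DCIS.COM cells that carried the empty pCDH vector. This comparison takes 4 of the 8 RNA-seq samples of the series, the 2 libraries labelled pCDH-HOTAIR and the 2 labelled pCDH-empty, and all 13771 genes measured in them. It is defined by its labels, not by any measured value, but was chosen with earlier results of these data known. The other 4 samples are MCF10A cells with the same vectors. They enter as a point of comparison and in the pooled estimate of the spread behind the standard errors and p-values. DCIS.COM is an established cell line of the MCF10A lineage that forms lesions like ductal carcinoma in situ (DCIS) in mice. It was kept in DMEM/F-12 with horse serum, whereas the medium of the MCF10A cells also held epidermal growth factor, hydrocortisone, insulin and cholera toxin. All transduced cells, the empty-vector controls included, had been selected with puromycin, and RNA came from subconfluent plates. The sources do not say whether each line was a pool or a single clone, or whether the libraries of a group came from separate cultures, so the p-values below measure only the spread between these libraries, which may be technical.

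HOTAIR is a long non-coding RNA transcribed within the HOXC cluster, from the strand opposite to the HOXC genes. It is best known for binding the PRC2 complex, which methylates histone H3 at lysine 27, and the LSD1 complex, which removes methyl groups from histone H3, and high levels have been tied to invasive breast cancer. The question addressed here is which other transcripts change when HOTAIR is raised in a pre-invasive breast line. A gene was called when the Benjamini-Hochberg adjusted p of limma, a linear model fitted to all genes at once, was under 0.05 and the fold change was at least 1.5. Values are given as CPM, read counts scaled to the size of the library, and fold changes as log2 differences, HOTAIR minus empty vector, with their standard error (SE) and n = 2 libraries per group.

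Reads recovered from the values summed, over the genes measured, to 32258562 and 25819136 in pCDH-empty 1 and 2. In pCDH-HOTAIR 1 and 2 they summed to 34884841 and 32770295. A read shared by close copies may count more than once, so these sums are not the depth of sequencing. The library labelled pCDH-empty 1 stood apart from the other 3. Its distance to them, the square root of the summed squared log2 differences over all genes, was 46.4 to 51.3. By contrast, pCDH-empty 2 lay 28.7 and 30.1 from the pCDH-HOTAIR libraries, which lay 22.3 from each other. The difference followed base composition. In the tenth of genes with the lowest GC content the median log2 difference of pCDH-empty 1 minus pCDH-empty 2 was -0.45, and in the tenth with the highest it was 0.17. Between the pCDH-HOTAIR libraries the largest such median of the 10 groups of genes by GC content was -0.015. RN7SL1 and RN7SL2 are genes of the signal recognition particle RNA, and a read they share may count for both. Of the summed reads they took 18.9% in pCDH-empty 1 and 12.5% to 13.8% in the others. Called genes and list summaries are therefore given both with all libraries and without pCDH-empty 1. In the second case the single remaining control library is assumed to vary like the other groups.

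**Figure D1:**
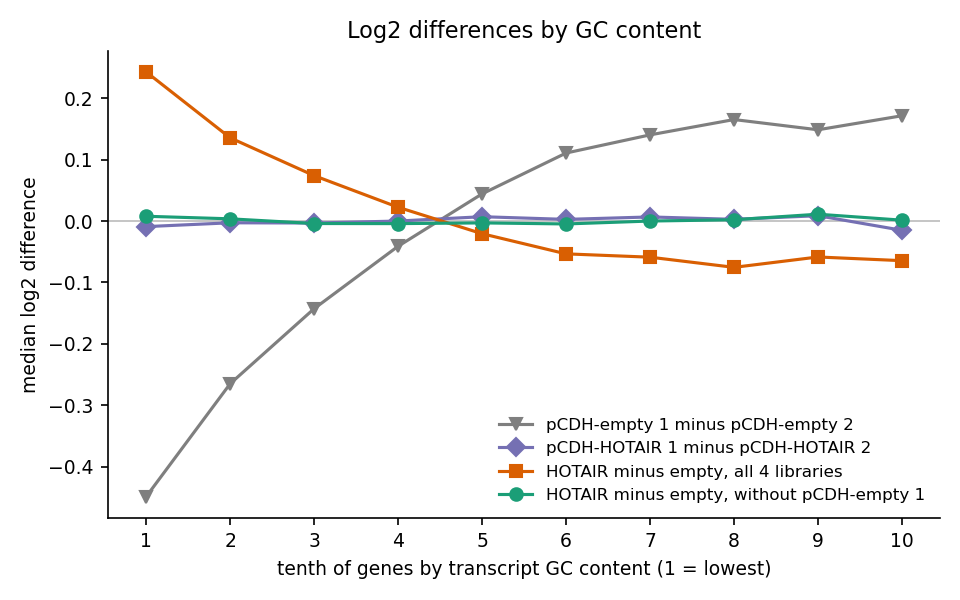
Median log2 difference (vertical axis) in 10 equal groups of genes by transcript GC content (horizontal axis, 1 = lowest), for the difference within each pair of DCIS.COM libraries and for HOTAIR minus empty vector. The difference within the pCDH-empty pair runs from -0.45 to 0.17, the HOTAIR effect with all 4 libraries runs the other way, from 0.24 in the lowest group to -0.065 in the highest, and the effect without pCDH-empty 1 stays near 0.

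Every library held transcripts of basal and of luminal breast epithelium. All 6 basal and myoepithelial markers of the list were measured, with a summed level of 4039 to 4582 CPM in the pCDH-empty libraries and 4455 and 4578 CPM in the pCDH-HOTAIR libraries, and none was called. Of the 7 luminal markers 5 were measured, with a summed level of 5675 and 4391 CPM against 4280 and 4270 CPM, nearly all of it KRT8 and KRT18, while ESR1, the estrogen receptor, was at 2.20 and 2.31 CPM in the pCDH-empty libraries and 2.84 and 2.56 CPM in the pCDH-HOTAIR libraries, and none was called. EPCAM, an epithelial adhesion protein, stood at 314 and 370 CPM against 341 and 349 CPM, and CDH1, which encodes E-cadherin, at 294 and 270 CPM against 281 and 276 CPM. Of the 6 leukocyte markers, 2 were in the table, CD14 and CD68, with 5.63 to 6.55 CPM together in any library, and of the 5 endothelial markers only PECAM1, with 10.1 to 13.3 CPM. Of the 6 fibroblast and 3 adipocyte markers of the lists, 0 were among the genes tested. In bulk RNA, fewer cells of a type and less RNA per cell cannot be told apart.

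HOTAIR itself had the largest difference of all genes. It was at 3.96 and 5.22 CPM in the pCDH-empty libraries and 202 and 190 CPM in the pCDH-HOTAIR libraries. The log2 fold change was 5.41 ± 0.12, 42.4-fold, with an adjusted p of 1.65e-06, and without pCDH-empty 1 it was 5.21 ± 0.067 (adjusted p = 5.46e-09). The gene lies at chr12:54356092-54368740 on the minus strand (GRCh37), and counts per gene do not separate vector transcripts from those of the cell's own locus.

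With all 4 libraries, 12 genes were called higher (0.0871% of the 13771 tested) and 0 were called lower (0%). At an unadjusted p under 0.05 there were 1251 higher genes (9.08%) and 1158 lower genes (8.41%), and limma-voom on the reads recovered from the values called 11 higher and 1 lower. Both HOTAIR libraries lay above both empty-vector libraries in 24.7% of all genes and below them in 24.5%. Beside HOTAIR, the called genes were COL17A1, TRIM22, SAA2, CLCA2, PDZK1IP1, TCN1, NDRG1, GLUL, MMP14, PROS1 and IGFBP6, whose fold changes ran from 1.53 to 2.48. On GRCh37 they lie at chr10:105791044-105845638 (COL17A1), chr11:5710840-5758319 (TRIM22), chr11:18260770-18270215 (SAA2), chr1:86889854-86922236 (CLCA2), chr1:47649254-47656716 (PDZK1IP1) and chr11:59620273-59633962 (TCN1). NDRG1 lies at chr8:134249418-134314265, GLUL at chr1:182347233-182361341, MMP14 at chr14:23305769-23318250, PROS1 at chr3:93591895-93698847 and IGFBP6 at chr12:53491220-53496129, and all 11 are protein-coding. With 2 libraries a group an exact permutation test cannot go below a two-sided p of 0.333, so that every call rests on the spread pooled over genes and over the 4 groups. When pCDH-HOTAIR 1 or pCDH-HOTAIR 2 was left out, HOTAIR was the only gene called, and when the model was fitted to the DCIS.COM libraries alone no gene was.

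**Figure D2:**
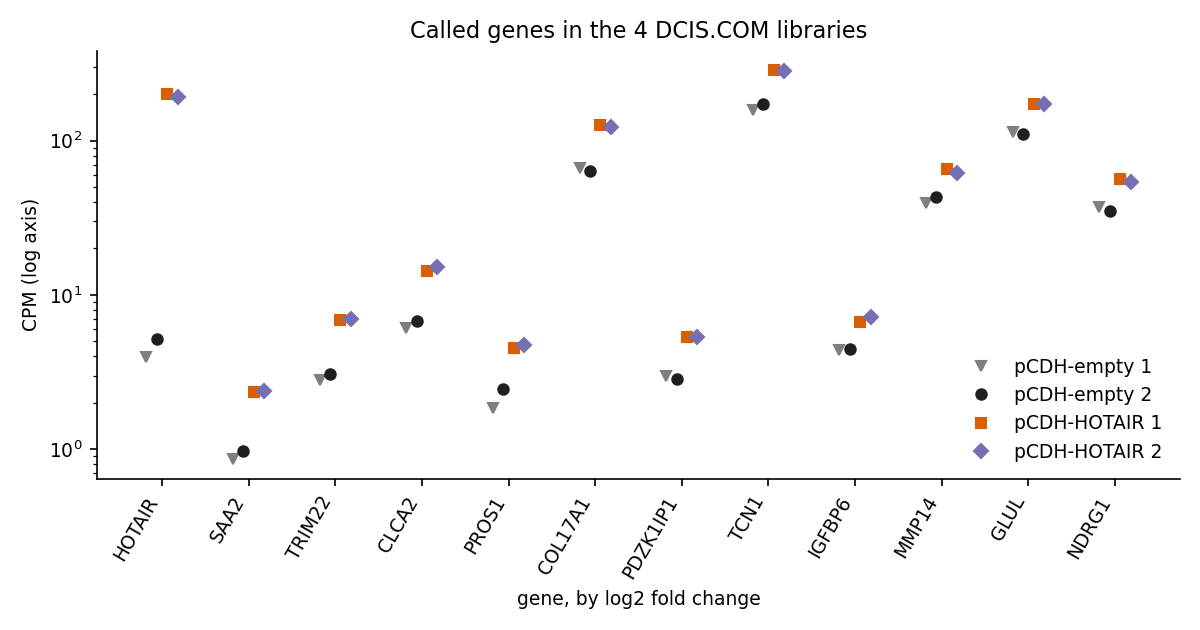
CPM (log axis) of the 12 called genes in each of the 4 DCIS.COM libraries, genes ordered by log2 fold change; each symbol is a library. For every gene both pCDH-HOTAIR libraries lie above both pCDH-empty libraries, from 202 and 190 CPM against 3.96 and 5.22 CPM for HOTAIR to 56.5 and 54.0 CPM against 36.9 and 35.2 CPM for NDRG1.

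The gene with the smallest p after HOTAIR was COL17A1, the transmembrane collagen of hemidesmosomes, the junctions that anchor basal epithelial cells to the basement membrane. It was at 66.4 and 63.2 CPM in the pCDH-empty libraries and 127 and 123 CPM in the pCDH-HOTAIR libraries. The groups were far apart relative to their spread, with a log2 fold change of 0.94 ± 0.063 (adjusted p = 0.0024), and 0.98 ± 0.048 without pCDH-empty 1 (adjusted p = 0.00015). No other hemidesmosome gene was called among the 9 on the list. The integrin chain ITGB4 was at 1638 and 1288 CPM in the pCDH-empty libraries and 1513 and 1433 CPM in the pCDH-HOTAIR libraries, with overlapping groups. Over the 31 collagens and laminins measured, 1 was called, 8 were higher and 0 lower at an unadjusted p under 0.05 in either fit, beside 9.08% and 8.09% of all genes in the higher direction, and the median log2 fold change was 0.23 with all libraries and 0.13 without pCDH-empty 1, beside 0.010 and 0 over all genes. COL4A4, a basement membrane collagen, was called only when pCDH-empty 1 was left out, at 0.58 ± 0.11 with all libraries (adjusted p = 0.124) and 0.60 ± 0.11 without it (adjusted p = 0.0442).

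Among the genes of matrix cleavage, MMP14, a membrane-bound metalloproteinase that cleaves collagen and activates other proteases, was at 39.4 and 43.2 CPM with the empty vector and 65.4 and 62.1 CPM with HOTAIR. The difference was 0.63 ± 0.070 on the log2 scale (adjusted p = 0.0271). Without pCDH-empty 1 the adjusted p was 0.00339 but the log2 fold change of 0.56 ± 0.051 fell short of the fold threshold, and MMP14 was the single gene of the 12 that lost its call in this way. MMP28, a secreted metalloproteinase of epithelia, missed the threshold with all libraries (log2 fold change 0.70 ± 0.091, adjusted p = 0.0561) and was called without pCDH-empty 1 (0.79 ± 0.070, adjusted p = 0.00307). MMP2, a gelatinase, was at 5.59 and 5.82 CPM with the empty vector and 9.68 and 8.76 CPM with HOTAIR and was called in neither fit. The list of metalloproteinases and TIMPs as a whole was mixed, since at an unadjusted p under 0.05 there were 7 higher and 5 lower among 25 genes, and 6 and 4 without pCDH-empty 1, beside 9.08% and 8.41% of all genes with all libraries.

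Genes of coagulation and plasminogen activation gave 1 call, PROS1, which encodes protein S, an anticoagulant cofactor. It was at 1.86 and 2.46 CPM with the empty vector and 4.56 and 4.77 CPM with HOTAIR, and its log2 fold change was 1.10 ± 0.13 (adjusted p = 0.0391), and 0.90 ± 0.082 without pCDH-empty 1 (adjusted p = 0.00339). PLAT, the tissue plasminogen activator, was at 152 and 131 CPM with the empty vector and 210 and 204 CPM with HOTAIR. All libraries together left it just outside the threshold (adjusted p = 0.0762), and without pCDH-empty 1 it was called, with a log2 fold change of 0.66 ± 0.045 (adjusted p = 0.000764). The urokinase gene PLAU was at 4.89 and 5.89 CPM with the empty vector and 8.30 and 8.08 CPM with HOTAIR and was called in neither fit. Of the 13 genes measured, 6 were higher and 0 lower at an unadjusted p under 0.05, and 7 and 0 without pCDH-empty 1, beside 9.08% and 8.09% of all genes in the higher direction.

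The acute-phase and complement list held SAA2, the antimicrobial inhibitors and the complement factors, proteins that epithelia secrete in inflammation. SAA2, a serum amyloid A, was at 0.865 and 0.970 CPM with the empty vector and 2.36 and 2.38 CPM with HOTAIR, which is 26 and 26 against 84 and 80 reads. Its log2 fold change was 1.31 ± 0.095 (adjusted p = 0.00255), and 1.23 ± 0.079 without pCDH-empty 1 (adjusted p = 0.000578). SAA1, a near-identical neighbour with which reads could be shared, was at 1.23 and 2.09 CPM with the empty vector and 2.93 and 2.71 CPM with HOTAIR and was not called, so the split between the pair is uncertain. PI3, a protease inhibitor of epithelial surfaces also known as elafin, was at 31.4 and 28.2 CPM with the empty vector and 48.4 and 46.9 CPM with HOTAIR. CFI, which inactivates complement C3b, was at 7.82 and 11.4 CPM with the empty vector and 17.9 and 17.9 CPM with HOTAIR. Both missed the threshold with all libraries (adjusted p = 0.0816 for PI3 and 0.119 for CFI) and were called without pCDH-empty 1 (adjusted p = 0.015 and 0.00388). LCN2, an iron-binding defence protein, was at 139 and 148 CPM with the empty vector and 186 and 186 CPM with HOTAIR and reached no call in either fit. All 17 genes measured had a positive log2 fold change with and without pCDH-empty 1, 12 of them at an unadjusted p under 0.05 with all libraries and 11 without pCDH-empty 1, beside 9.08% and 8.09% of all genes in that direction. The median was 0.37 and 0.33, beside 0.010 and 0 over all genes.

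TRIM22, an interferon-induced antiviral protein, was the only interferon-stimulated gene called with all libraries. It was at 2.79 and 3.06 CPM with the empty vector and 6.86 and 6.97 CPM with HOTAIR, and its log2 fold change was 1.22 ± 0.083 (adjusted p = 0.0024), and 1.16 ± 0.068 without pCDH-empty 1 (adjusted p = 0.000438). SAMD9L, another interferon-induced gene, joined it without pCDH-empty 1 (0.63 ± 0.11, adjusted p = 0.0371). Among the 35 genes measured, 14 were higher and 0 lower at an unadjusted p under 0.05, and 11 and 0 without pCDH-empty 1, beside 9.08% and 8.09% of all genes in the higher direction. OAS2 was at 0.765 and 0.933 CPM with the empty vector and 2.31 and 2.15 CPM with HOTAIR. ISG15, a ubiquitin-like protein induced by interferon, was at 3.23 and 3.73 CPM with the empty vector and 3.83 and 3.37 CPM with HOTAIR, with groups that overlapped. The list median went from 0.26 with all libraries to 0.14 without pCDH-empty 1.

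Of 18 antigen presentation genes measured, 15 had a positive log2 fold change with all libraries and 16 without pCDH-empty 1, and 0 were called in either fit. HLA-B, a classical class I gene that shares many sequence stretches with its relatives, was at 89.9 and 89.1 CPM with the empty vector and 112 and 111 CPM with HOTAIR. CTSS, a protease of antigen processing, was at 6.95 and 10.0 CPM with the empty vector and 14.3 and 13.6 CPM with HOTAIR, with a log2 fold change of 0.73 with all libraries (adjusted p = 0.153) and 0.47 without pCDH-empty 1 (adjusted p = 0.0336). Of the 18, 5 had an adjusted p under 0.05 without pCDH-empty 1, all higher, against 0.959% of all genes. B2M, the class I light chain, was at 368 and 497 CPM with the empty vector and 585 and 584 CPM with HOTAIR, where pCDH-empty 1 was the lowest of the 4 libraries. In the TAP transporter the values overlapped or lay lower, TAP1 at 27.7 and 21.6 CPM with the empty vector and 22.4 and 23.6 CPM with HOTAIR.

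NDRG1, a stress-responsive gene induced by low oxygen, represented the hypoxia list among the calls. It was at 36.9 and 35.2 CPM with the empty vector and 56.5 and 54.0 CPM with HOTAIR, and its log2 fold change was 0.61 ± 0.061 (adjusted p = 0.016), and 0.65 ± 0.047 without pCDH-empty 1 (adjusted p = 0.000825). Of 44 hypoxia-responsive genes measured, 23 were higher and 0 lower at an unadjusted p under 0.05, and without pCDH-empty 1 these counts were 24 and 0, against 9.08% and 8.09% of all genes in the higher direction. BNIP3, a mitophagy receptor, was at 86.6 and 108 CPM with the empty vector and 138 and 135 CPM with HOTAIR. BNIP3L, its relative, was at 63.2 and 103 CPM with the empty vector and 137 and 133 CPM with HOTAIR, with pCDH-empty 1 far below pCDH-empty 2, so that its log2 fold change went from 0.74 ± 0.19 to 0.38 ± 0.051 when that library was left out. Glycolytic members of the list were mixed and none was called. ALDOC, an aldolase, was at 35.4 and 31.3 CPM with the empty vector and 44.7 and 41.4 CPM with HOTAIR and PGK1, phosphoglycerate kinase, at 708 and 786 CPM with the empty vector and 867 and 862 CPM with HOTAIR, with both HOTAIR libraries above both controls. HK2, a hexokinase, was at 249 and 259 CPM with the empty vector and 258 and 247 CPM with HOTAIR and SLC2A1, the glucose transporter, at 337 and 269 CPM with the empty vector and 283 and 285 CPM with HOTAIR, with overlapping groups. The list median was 0.23 with all libraries and 0.15 without pCDH-empty 1.

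The remaining calls belonged to different functions. CLCA2, a chloride channel regulator of stratified epithelia, was at 6.09 and 6.83 CPM with the empty vector and 14.4 and 15.3 CPM with HOTAIR (log2 fold change 1.19 ± 0.087, adjusted p = 0.00255, and 1.11 ± 0.071, adjusted p = 0.000578, without pCDH-empty 1). PDZK1IP1, a small membrane protein of epithelia, was at 2.99 and 2.87 CPM with the empty vector and 5.35 and 5.36 CPM with HOTAIR (0.85 ± 0.075, adjusted p = 0.00717, and 0.88 ± 0.063, adjusted p = 0.000825, without pCDH-empty 1). TCN1, a vitamin B12 carrier, was at 159 and 174 CPM with the empty vector and 286 and 282 CPM with HOTAIR (0.77 ± 0.068, adjusted p = 0.00717, and 0.71 ± 0.049, adjusted p = 0.000764, without pCDH-empty 1). In all of these the 2 HOTAIR libraries lay close together and clear of both controls. GLUL, glutamine synthetase, was at 114 and 111 CPM with the empty vector and 172 and 173 CPM with HOTAIR (0.62 ± 0.069, adjusted p = 0.0271, and 0.64 ± 0.063, adjusted p = 0.00388, without pCDH-empty 1). IGFBP6, a binding protein with a preference for insulin-like growth factor II, was at 4.39 and 4.48 CPM with the empty vector and 6.70 and 7.18 CPM with HOTAIR (0.64 ± 0.077, adjusted p = 0.0391, and 0.62 ± 0.069, adjusted p = 0.00807, without pCDH-empty 1). Its relative IGFBP3 was at 337 and 350 CPM with the empty vector and 424 and 423 CPM with HOTAIR and was not called. HRNR, a cornified envelope protein, had 1 and 0 against 8 and 13 reads and was called only without pCDH-empty 1, where the remaining control had no read.

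Promoters of the called genes were read from RefSeq (GRCh38.p14), from 250 bases before to 50 after the annotated start. Of the 11 called genes other than HOTAIR, 8 matched a promoter. TRIM22, SAA2 and NDRG1 did not, so the called interferon-stimulated gene and the called hypoxia gene were not searched. The motifs searched on both strands were the hypoxia response element cores ACGTG and GCGTG, the AP1 site TGANTCA and the core TTTCNNTTT of the interferon-stimulated response element. They were held by 2, 1, 1 and 3 of the 8 promoters, against 26.5%, 50.5%, 4.74% and 7.32% of the promoters of 10679 genes in the table, and 2 of the 8 held none. The 4 with the smallest p that hold a motif are shown because they let the match be seen in its place. Capitals mark the matches, which describe letters and not binding. COL17A1 (chr10:104085831-104086130, minus strand) and GLUL (chr1:182391741-182392040, minus strand) hold the interferon core, GLUL also the GCGTG core 3 times, CLCA2 (chr1:86423921-86424220, plus strand) the AP1 site, and PDZK1IP1 (chr1:47189987-47190286, minus strand) the ACGTG core.
COL17A1: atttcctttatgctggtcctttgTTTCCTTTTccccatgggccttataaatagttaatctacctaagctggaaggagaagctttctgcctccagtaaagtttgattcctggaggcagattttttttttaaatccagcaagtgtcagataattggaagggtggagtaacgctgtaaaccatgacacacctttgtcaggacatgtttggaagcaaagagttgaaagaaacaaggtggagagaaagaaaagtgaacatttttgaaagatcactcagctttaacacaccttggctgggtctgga
CLCA2: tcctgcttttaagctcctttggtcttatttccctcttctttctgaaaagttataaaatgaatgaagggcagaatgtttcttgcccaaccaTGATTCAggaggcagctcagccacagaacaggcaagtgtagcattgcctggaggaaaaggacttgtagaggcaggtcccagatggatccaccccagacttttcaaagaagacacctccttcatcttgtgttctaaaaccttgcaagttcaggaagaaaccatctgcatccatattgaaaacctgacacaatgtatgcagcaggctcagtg
PDZK1IP1: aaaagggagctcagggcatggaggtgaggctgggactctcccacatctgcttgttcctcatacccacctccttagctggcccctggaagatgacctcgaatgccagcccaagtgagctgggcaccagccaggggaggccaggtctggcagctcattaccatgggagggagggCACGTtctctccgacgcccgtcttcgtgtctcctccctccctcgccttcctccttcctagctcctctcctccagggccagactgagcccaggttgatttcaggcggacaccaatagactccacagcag
GLUL: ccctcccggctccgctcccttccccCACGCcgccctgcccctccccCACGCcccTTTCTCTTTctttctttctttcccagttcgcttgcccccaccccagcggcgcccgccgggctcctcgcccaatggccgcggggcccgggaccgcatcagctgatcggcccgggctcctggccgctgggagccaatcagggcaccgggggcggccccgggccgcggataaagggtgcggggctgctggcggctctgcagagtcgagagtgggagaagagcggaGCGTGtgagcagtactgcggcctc

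Most called genes were also genes that MCF10A expresses at a higher level. Of the 12, 10 had a higher mean CPM in the MCF10A pCDH-empty libraries than in the DCIS.COM pCDH-empty libraries, against 49.7% of all genes. COL17A1 was at 1917 and 2021 CPM in MCF10A pCDH-empty, SAA2 at 84.9 and 85.9 CPM and TRIM22 at 86.6 and 86.8 CPM. The rise in DCIS.COM was 3.05% of the MCF10A level for COL17A1, 1.71% for SAA2, 4.60% for TRIM22 and 11.1% for GLUL. TCN1 was lower in MCF10A, at 90.8 and 85.6 CPM. The levels of 5 genes that are far more abundant in MCF10A, chosen after their values were seen, can be set beside this. KRT6A, a keratin with 5541 and 5954 CPM in MCF10A pCDH-empty, was at 43.8 and 48.9 CPM with the empty vector and 53.4 and 47.5 CPM with HOTAIR in DCIS.COM, a difference of 0.0714% of its MCF10A level, and FLNA, filamin A, with 980 and 1233 CPM in MCF10A, was at 9.55 and 8.10 CPM with the empty vector and 7.82 and 8.08 CPM with HOTAIR. TGFBI, ROS1 and CCDC80, the other 3 genes set beside them, were higher in both HOTAIR libraries than in both controls and were not called, by 0.515%, 0.581% and 0.221% of their MCF10A level. The 113 genes at least 64-fold more abundant in MCF10A at 10 CPM or more had a median log2 fold change of 0.21. Over all genes it was 0.010. Of the 113, 21.2% were higher in both HOTAIR libraries than in both controls and 12.4% lower, beside 24.7% and 24.5% of all genes.

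No gene was called lower with all libraries. ANPEP, an aminopeptidase of the cell surface, came closest, at 70.0 and 68.9 CPM with the empty vector and 48.4 and 47.4 CPM with HOTAIR. Its adjusted p was 0.0193, but its log2 fold change of -0.54 ± 0.056 was a decrease of less than the fold threshold. Lower values that met the fold threshold with and without pCDH-empty 1 were led by DIO2, the enzyme that activates thyroid hormone, at 2.20 and 2.13 CPM with the empty vector and 1.04 and 1.10 CPM with HOTAIR (log2 fold change -0.97 ± 0.13, adjusted p = 0.0756, and -0.94 ± 0.15 with adjusted p = 0.0292 without pCDH-empty 1, where it was called). SCGB2A2, mammaglobin, a secretory protein of breast epithelium, was at 8.38 and 10.9 CPM with the empty vector and 2.70 and 3.01 CPM with HOTAIR, the largest of these differences (-1.72 ± 0.30, adjusted p = 0.119). KRT86, a hair keratin with close copies, was at 25.1 and 16.8 CPM with the empty vector and 10.9 and 11.4 CPM with HOTAIR. HUWE1, a ubiquitin ligase, was at 212 and 201 CPM with the empty vector and 131 and 129 CPM with HOTAIR. For each of these 4 genes both HOTAIR libraries lay below both controls, yet DIO2 alone among them was called in either fit. KRT81, a close copy of KRT86, was at 523 and 414 CPM with the empty vector and 304 and 319 CPM with HOTAIR, a difference that stayed under the fold threshold.

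Receptor and growth factor genes were among those with lower values as well. FGFR1, a fibroblast growth factor receptor, was at 23.7 and 21.3 CPM with the empty vector and 13.4 and 15.0 CPM with HOTAIR. The adjusted p was 0.0816 with all libraries and 0.0304 without pCDH-empty 1, where the log2 fold change of -0.58 ± 0.096 fell just short of the threshold. FGFR2 was at 33.5 and 30.8 CPM with the empty vector and 43.1 and 40.0 CPM with HOTAIR, in the other direction, and was not called. EREG, an epidermal growth factor receptor ligand, was at 89.9 and 132 CPM with the empty vector and 81.3 and 86.6 CPM with HOTAIR and was called lower without pCDH-empty 1 (-0.65 ± 0.079, adjusted p = 0.0131). AREG, a ligand of the same receptor, was at 31.9 and 30.8 CPM with the empty vector and 22.6 and 24.5 CPM with HOTAIR and was not called. IL6 had 6 and 6 against 2 and 2 reads, too few for a firm statement. Among 30 AP1 subunits and ERK feedback genes, 3 were higher and 7 lower at an unadjusted p under 0.05, and 1 and 5 without pCDH-empty 1, beside 9.08% and 8.41% of all genes with all libraries, and the median went from -0.18 with all libraries to -0.068 without pCDH-empty 1.

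The NRF2 targets, genes of antioxidant defence and NADPH supply that the factor NRF2 switches on, had lower values throughout. All 21 had a negative log2 fold change with all libraries and again without pCDH-empty 1, 16 and 17 of them at an unadjusted p under 0.05, against 8.41% and 7.0% of all genes in that direction. None was called with all libraries, where AKR1B10, HMOX1 and ABCC2 met the fold threshold but not the adjusted p. Without pCDH-empty 1, 8 of 21 had an adjusted p under 0.05, against 0.341% of all genes in the lower direction, and 1 was called, the aldo-keto reductase AKR1B10, at 2.16 and 2.91 CPM with the empty vector and 1.38 and 1.43 CPM with HOTAIR (-1.01 ± 0.18, adjusted p = 0.0427). NQO1, a quinone reductase, was at 581 and 596 CPM with the empty vector and 456 and 456 CPM with HOTAIR. TXNRD1, thioredoxin reductase, was at 272 and 269 CPM with the empty vector and 198 and 210 CPM with HOTAIR. In both genes the 2 HOTAIR libraries lay below both controls. The median log2 fold change was -0.33 with all libraries and -0.38 without pCDH-empty 1, so differences were modest in size. SLC7A11, the cystine transporter, was the member that depended most on the control library, at 46.0 and 87.5 CPM with the empty vector and 62.3 and 59.9 CPM with HOTAIR.

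**Figure D3:**
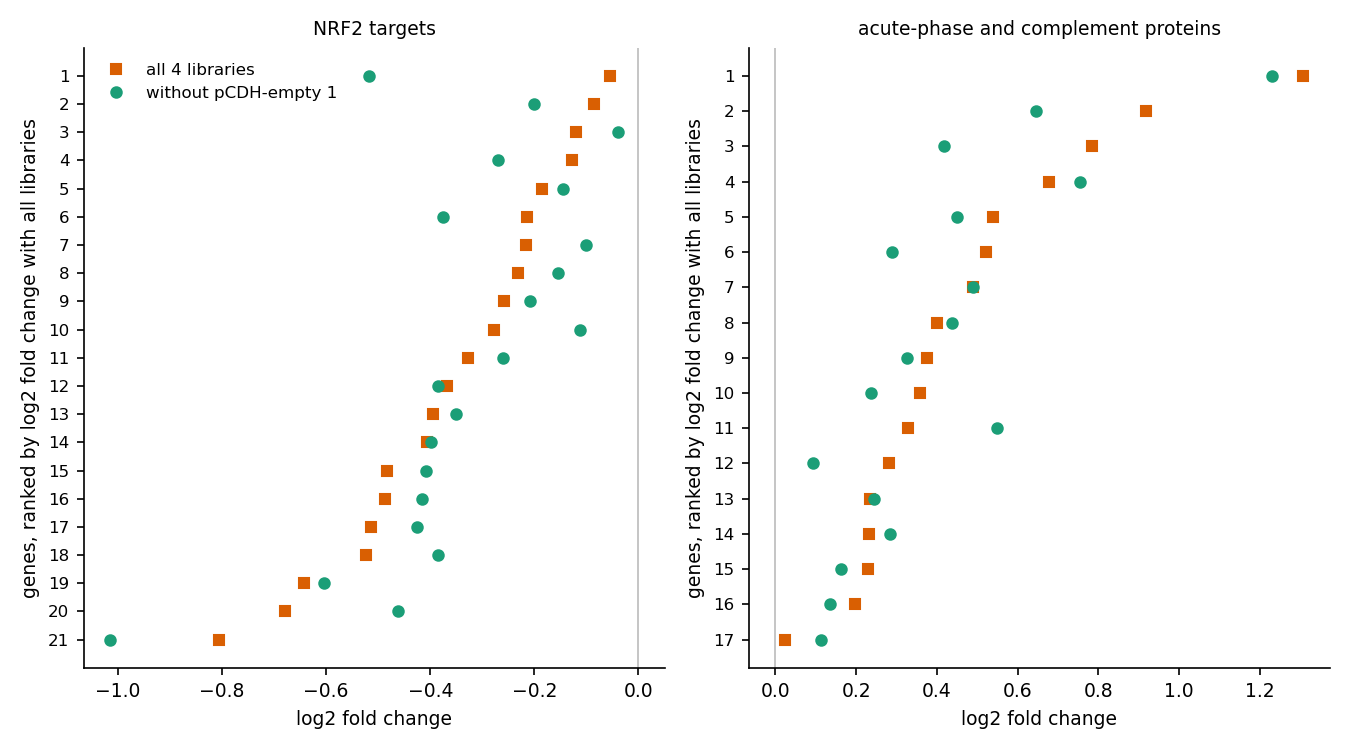
Log2 fold change, HOTAIR over empty vector (horizontal axis), of each measured NRF2 target (left) and each acute-phase and complement gene (right), ranked by the value with all libraries (vertical axis, 1 = highest); squares use all 4 DCIS.COM libraries and circles leave out pCDH-empty 1. All 21 NRF2 targets lie below 0 and all 17 acute-phase and complement genes above 0 in both.

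In other lists the values were smaller or went with pCDH-empty 1. At an unadjusted p under 0.05 the counts of this paragraph stand beside 9.08% of all genes higher and 8.41% lower with all libraries, and 8.09% and 7.0% without pCDH-empty 1. Replication-dependent histones had 29 of 62 genes lower and 0 higher at that p, and 15 and 0 without pCDH-empty 1, and their median went from -0.39 to -0.078 without pCDH-empty 1, and that library exceeded pCDH-empty 2 by a median of 0.58 on the log2 scale. Heat shock genes had 6 of 13 lower and 0 higher at that p with all libraries. Their median went from -0.20 to -0.086 without pCDH-empty 1. Of these 13, 2 had a positive log2 fold change with all libraries and 1 without pCDH-empty 1. Keratins had 5 of 18 lower and 0 higher at that p with all libraries. Their median went from -0.086 to 0.069 without pCDH-empty 1, where 11 of 18 had a positive log2 fold change. Among 34 proliferation genes 0 were higher and 9 lower, and 0 and 7 without pCDH-empty 1, with a median of -0.10 and -0.074. MCM3, a subunit of the replication helicase, was at 254 and 229 CPM with the empty vector and 203 and 205 CPM with HOTAIR. Of the 28 mesenchymal genes 5 were higher and 6 lower, and 6 and 4 without pCDH-empty 1, with TNC, tenascin C, at 168 and 147 CPM with the empty vector and 111 and 105 CPM with HOTAIR and TGFBI, a matrix protein, at 15.6 and 13.6 CPM with the empty vector and 20.1 and 20.0 CPM with HOTAIR. Of the 30 epithelial junction genes 3 were higher and 1 lower, and 5 and 1 without pCDH-empty 1, and no mesenchymal or junction gene was called in either fit. HOXC genes, the neighbours of HOTAIR, gave no call in the 5 measured, HOXC13 being at 24.1 and 17.9 CPM with the empty vector and 19.0 and 18.0 CPM with HOTAIR and HOXC11 at 8.65 and 5.97 CPM with the empty vector and 6.67 and 6.47 CPM with HOTAIR. The partners PRC2 and LSD1 gave no call in 18 genes, and their median of 0.14 became -0.0048 without pCDH-empty 1. Of the 11 HOXD genes of the list, 0 were among the genes tested.

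**Figure D4:**
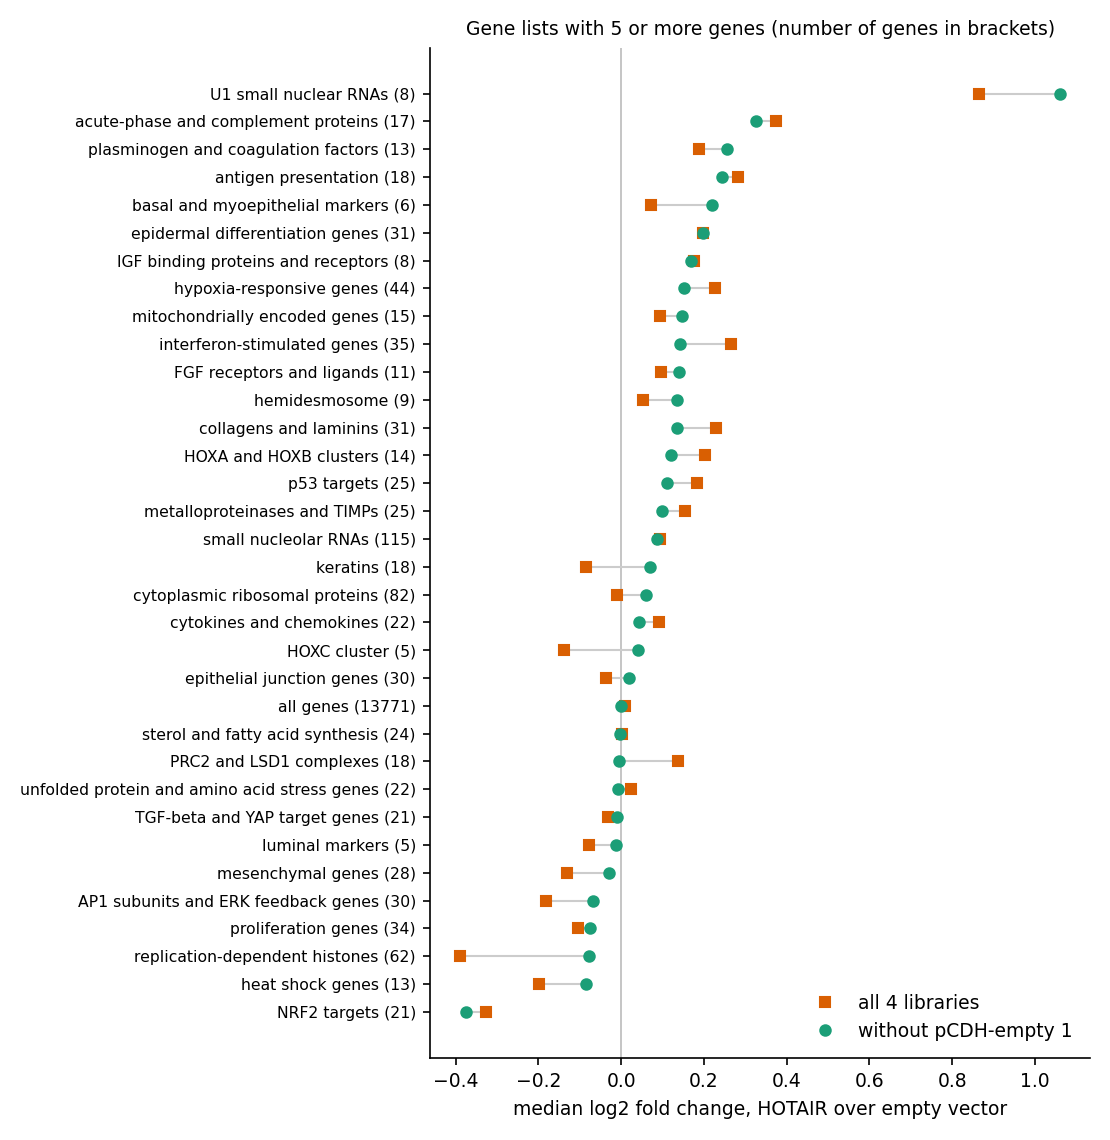
Median log2 fold change, HOTAIR over empty vector (horizontal axis), of each gene list with 5 or more measured genes (vertical axis, number of genes in brackets), with all 4 DCIS.COM libraries (squares) and without pCDH-empty 1 (circles). NRF2 targets lie lowest without pCDH-empty 1 (-0.38) and U1 small nuclear RNAs highest (1.06), while the histone median moves from -0.39 to -0.078.

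Small nuclear RNAs gave the highest list median. The 8 genes of U1, the RNA that recognises 5′ splice sites, are near-identical copies whose reads cannot be told apart, and RNU1-1 stands for them at 239 and 183 CPM with the empty vector and 428 and 336 CPM with HOTAIR. The pCDH-HOTAIR libraries were both higher but differed from each other by nearly as much as the pCDH-empty libraries did. None was called with all libraries (adjusted p = 0.138 for RNU1-1) and all 8 were without pCDH-empty 1 (log2 fold change 1.05 ± 0.16, adjusted p = 0.0246). RNU2-2P, a U2 small nuclear RNA, was at 369 and 279 CPM with the empty vector and 455 and 405 CPM with HOTAIR and likewise called only then. The mitochondrial ribosomal RNAs went the other way. RNR1 was at 70.3 and 127 CPM with the empty vector and 69.9 and 46.8 CPM with HOTAIR and RNR2 at 140 and 246 CPM with the empty vector and 159 and 119 CPM with HOTAIR, and both were called lower only without pCDH-empty 1, with pCDH-empty 2 the highest library.

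Without pCDH-empty 1 the calls rose to 51 higher (0.370%) and 9 lower (0.0654%), among them 11 of the 12 genes called with all libraries. Both fits use the pCDH-HOTAIR libraries and pCDH-empty 2, so agreement between them is partly built in. Among these calls, pCDH-empty 1 lay between the HOTAIR libraries by CPM in IGFBP4, TNS1 and RNR2. IGFBP4 was at 2.13 and 0.933 CPM with the empty vector and 2.36 and 2.09 CPM with HOTAIR. TNS1 had 8 and 1 against 10 and 8 reads. KITLG, the ligand of the KIT receptor, was at 9.45 and 13.4 CPM with the empty vector and 21.0 and 21.8 CPM with HOTAIR (0.67 ± 0.064, adjusted p = 0.00388). TNFSF10, a death receptor ligand also called TRAIL, was at 7.42 and 9.18 CPM with the empty vector and 15.1 and 15.4 CPM with HOTAIR (0.73 ± 0.093, adjusted p = 0.015). INPP5D, an inositol phosphatase, was at 15.0 and 11.7 CPM with the empty vector and 23.1 and 21.6 CPM with HOTAIR (0.93 ± 0.091, adjusted p = 0.00388). TP53INP1, a p53 target, was at 6.15 and 10.3 CPM with the empty vector and 15.4 and 16.0 CPM with HOTAIR (0.61 ± 0.10, adjusted p = 0.0339). Several calls rested on few reads, such as CYBA with 1 and 0 against 4 and 7 reads and PTGER2 with 2 and 0 against 6 and 5. GLP2R had 2 and 5 against 0 and 0 reads and no fold change is given for it. The counts of this paragraph take each U1 copy as a separate gene, although their reads cannot be told apart. An entry without a symbol, at 236 and 180 against 424 and 333 CPM, had values close to theirs and is counted too. LOC388242 (10 and 8 against 24 and 26 reads) and LOC613038 (10 and 8 against 24 and 27) are likewise counted separately.

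**Figure D5:**
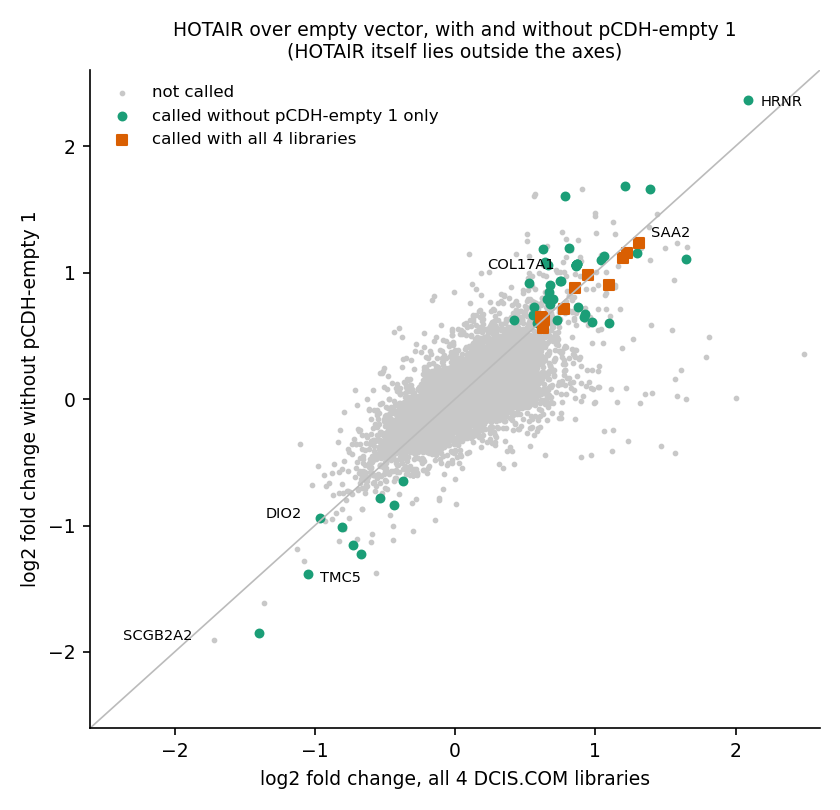
Log2 fold change of every gene with all 4 DCIS.COM libraries (horizontal axis) against the log2 fold change without pCDH-empty 1 (vertical axis); the line marks equal values, squares are the 12 genes called with all libraries and circles the genes called only without pCDH-empty 1. HOTAIR (5.41 and 5.21) lies outside the axes, and the other genes called with all libraries lie near the line. Some genes called only without pCDH-empty 1 lie off it, such as TNS1 (0.79 and 1.60) and GNG2 (1.65 and 1.11). A tail of uncalled genes on the right has high values only when pCDH-empty 1 is included.

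Leaving out pCDH-empty 1 removed more than it added among large changes. A fold change of at least 1.5 was seen in 433 higher and 119 lower genes with all libraries, and 176 and 57 of these kept it in the same direction without pCDH-empty 1. For 138 higher and 12 lower genes the change shrank below 1.2-fold or turned. TMEM30A, a lipid flippase subunit, was at 124 and 222 CPM with the empty vector and 262 and 269 CPM with HOTAIR, and its log2 fold change went from 0.68 ± 0.22 to 0.26 ± 0.040. BIRC3, an inhibitor of apoptosis, was at 9.58 and 18.2 CPM with the empty vector and 20.5 and 22.4 CPM with HOTAIR. The genes with the largest gap between the controls at 10 CPM or more included TMED7, at 14.2 and 93.7 CPM with the empty vector and 94.4 and 99.3 CPM with HOTAIR, and MZT1, at 14.1 and 51.5 CPM with the empty vector and 52.6 and 57.6 CPM with HOTAIR, both low in pCDH-empty 1. At the other end RNY1, a Y RNA, was at 67.1 and 24.1 CPM with the empty vector and 32.1 and 24.7 CPM with HOTAIR, and TUBA1A, an alpha tubulin, at 51.7 and 26.2 CPM with the empty vector and 24.8 and 26.4 CPM with HOTAIR. In each of these 4 genes pCDH-empty 2 lay with the HOTAIR libraries and pCDH-empty 1 apart.

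The HOTAIR effect differed from that in MCF10A for 6 genes (0.0436%) at an adjusted p under 0.05 of limma's interaction term, all of them called in DCIS.COM. These were HOTAIR, COL17A1, TRIM22, SAA2, TCN1 and GLUL. GLUL was at 550 and 534 CPM in MCF10A pCDH-empty and 429 and 383 CPM in MCF10A pCDH-HOTAIR, a log2 fold change of -0.42 against 0.62 in DCIS.COM. COL17A1 was at 1917 and 2021 CPM against 1981 and 2034 CPM in MCF10A, where its log2 fold change was 0.028. NDRG1, by contrast, had a log2 fold change of 0.62 in MCF10A and 0.61 in DCIS.COM, with no difference detected between the lines (adjusted p = 0.99). For the other 5 called genes the difference between the lines did not pass the test. As the media of the lines differed, line and medium cannot be told apart here.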

How the data were processed

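RNA-seq of 8 libraries was used, 4 of them DCIS.COM. Reads had been aligned to hg19 by the authors (Rsubread), summed per gene by featureCounts over the UCSC annotation and scaled in edgeR, and they deposited log2 CPM values for 13771 genes, each above 0.5 CPM in at least 2 libraries (343 without a symbol). Versions, the use of strand and the treatment of overlapping genes are not given in the sources used here, so close copies are uncertain. Taken out of the log2 scale, the values rose in equal steps from a prior of 0.0717 CPM, and whole reads came back for 100% of them (within 0.1 of a read).

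Fold changes were estimated with limma (version 3.58.1, under R 4.3.3), fitting the means of the 4 groups to all 8 libraries with a mean-variance trend, which gave standard errors and Benjamini-Hochberg adjusted p-values, over all 13771 genes. The same fit was run without DCIS.COM pCDH-empty 1, which leaves 1 control library. The steps were tested on simulated libraries, where the share of false calls without that library was above the nominal level. Replicate numbers did not pair the libraries (correlation of same-number deviations -0.00887 in DCIS.COM). Gene lists were described by counts and medians with no set test. Position, length and GC content came from GENCODE release 44 on GRCh37 for 13148 genes (95.5%). Named genes were HOTAIR, all called genes, the 12 higher and 12 lower genes with the smallest p among those with a mean of at least 1 CPM that met the 1.5-fold threshold in the same direction with and without pCDH-empty 1, the 12 lower genes with the smallest p that met it with all libraries, the called members of each list or otherwise up to 4 with the smallest p, the 6 with the smallest p that met it with all libraries but fell under 1.2-fold or turned without pCDH-empty 1, the 5 with the largest gap between the controls in each direction at a mean of at least 10 CPM, and the 5 smallest interaction p-values. Some genes that the rule names are not reported here. Other genes were named after their values were seen, as examples of lists or of calls without pCDH-empty 1. The comparison, the lists and the tests were chosen with earlier results of these data known. The alternatives tried are in the closing section, and those of the fit without pCDH-empty 1 and the levels in MCF10A were chosen after seeing the data. Standard errors come from the spread between libraries, pooled over genes and groups. Python 3.11.15 with pandas 2.3.3 drew the tables.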

Additional observations from a re-analysis of the deposited data

Results flagged for a closer look

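The HOTAIR effect differed between the lines, by limma's interaction term, for 6 genes. The log2 fold change in DCIS.COM minus that in MCF10A was 1.37 for TRIM22, -1.87 for HOTAIR, 1.04 for GLUL, 0.997 for TCN1, 0.917 for COL17A1 and 1.24 for SAA2, with an adjusted p of 0.0385 for SAA2 and 0.0208 for each of the others. For HOTAIR the log2 fold change was 5.41 in DCIS.COM and 7.28 in MCF10A. Its mean level in the pCDH-empty libraries was 4.59 CPM in DCIS.COM and 1.47 CPM in MCF10A. The pCDH-HOTAIR libraries were at 202 and 190 CPM in DCIS.COM and 238 and 242 CPM in MCF10A. In proportion, the lines thus differed more with the empty vector than with HOTAIR. For GLUL, TCN1 and TRIM22 the fold change had opposite signs in the lines, with TCN1 at 90.8 and 85.6 CPM against 74.4 and 76.6 CPM in MCF10A. TRIM22 was at 86.6 and 86.8 CPM against 79.7 and 76.4 CPM in MCF10A, a log2 fold change of -0.15 against 1.22 in DCIS.COM. No interaction passed the test when either DCIS.COM pCDH-HOTAIR library was left out.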

How the results depend on the processing

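Beside 12 genes called higher and 0 lower with all libraries, the count of higher genes was 0 in a fit of the DCIS.COM libraries only, 6 without the mean-variance trend, 41 with a GC correction and 1 at a log2 fold change of at least 1.5. Lower genes numbered 7 with the GC correction and 1 each with a pseudocount of 1, limma-voom, thinned reads, a length correction and no fold-change threshold. Leaving out 1 library gave 1 to 1115 higher and 0 to 288 lower genes: 1115 and 288 without pCDH-empty 2, 51 and 9 without pCDH-empty 1, and 1 and 0 without either pCDH-HOTAIR library. Of the 48 genes called under the GC correction, 37 were also called without pCDH-empty 1. Without pCDH-empty 1, the 51 higher and 9 lower genes became 14 and 3 without the trend, 33 higher with limma-voom, 1 and 0 with DCIS.COM libraries only, and 1 and 0 when a pCDH-HOTAIR library was left out too. The 6 genes that differed between the lines became 0 to 4414 on leaving out a library, 4414 without pCDH-empty 2 and 89 without pCDH-empty 1. With the replicate number as a block, 5 higher genes were called and 0 differed between the lines. In the fit without pCDH-empty 1, limma-voom gave fewer higher genes but more lower genes than the main method. The cause of these shifts was not tested.

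Uncalled genes turned their sign in places. On leaving out 1 library the log2 fold change ran from -0.381 (without pCDH-empty 2) to 0.0418 (without pCDH-empty 1) for HOXC13, and between the same settings from -0.335 to 0.0216 for HOXC9, -0.393 to 0.136 for HOXC11, 0.788 to -0.00649 for HOXA9, 0.717 to -0.224 for CD14, -0.209 to 0.0296 for KRT7, 0.137 to -0.101 for EPCAM, -0.0754 to 0.0449 for CDH1, -0.796 to 0.106 for TUBB2B, -1.05 to 0.315 for RNY3, -1.25 to 0.225 for RNY1 and -0.2 to 0.25 for CD68. CD14 was at -0.00156 with thinned reads. CD68 was at -0.0546 under quantile normalization, -0.0102 with the length correction and -0.0141 without pCDH-HOTAIR 1. EPCAM was at -0.0016 with median centring, -0.0132 with the length and -0.0133 with the GC correction, and CDH1 at 0.000299, 0.00371 and 0.00443 with quantile normalization, totals without RN7SL and mitochondrial genes and the GC correction. None of the 12 genes called with all libraries changed its direction under any of the alternatives run.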

Other observations

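Further lists held few calls. Of 25 p53 targets, 9 were higher and 2 lower at an unadjusted p under 0.05, beside 9.08% and 8.41% of all genes, with a median log2 fold change of 0.18 with all libraries and 0.11 without pCDH-empty 1. BTG2, an antiproliferative p53 target, was at 19.1 and 19.0 CPM with the empty vector and 27.3 and 26.2 CPM with HOTAIR, and FAS, a death receptor, at 16.8 and 18.7 CPM against 22.3 and 23.8 CPM, neither of them called. Of 24 sterol and fatty acid synthesis genes, 1 was higher and 6 lower at that p, and 0 and 2 without pCDH-empty 1, with a median of 0.0021. FASN, fatty acid synthase, was at 1199 and 1044 CPM against 890 and 873 CPM, with an adjusted p of 0.251. The 82 cytoplasmic ribosomal protein genes had a median of -0.011 with all libraries and 0.060 without pCDH-empty 1. Of 115 small nucleolar RNAs, 12 were higher and 0 lower at that p, a share near the 9.08% of all genes in the higher direction, and none was called.

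Genes called higher without pCDH-empty 1 that no list held included LINC01133, a long non-coding RNA, with 8 and 9 reads with the empty vector and 31 and 27 with HOTAIR, and DAPK1, a kinase tied to cell death, with 25 and 12 reads against 36 and 34. ADGRF4, an adhesion receptor, was at 3.92 and 3.02 CPM against 5.88 and 5.81 CPM. The share that follows takes each U1 copy and other close copies as separate genes. Of the 51 genes called higher in that fit, 36 were more abundant in MCF10A pCDH-empty than in DCIS.COM pCDH-empty (70.6%, against 49.7% of all genes).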
